A study of Mus musculus with 4 samples.

Results

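The 10 genes described here encode the transcription factors that hold mouse embryonic stem cells (mESCs) in naive pluripotency: Nanog, Pou5f1 (Oct4), Sox2, Zfp42 (Rex1), Esrrb, Klf2, Klf4, Tfcp2l1, Tbx3 and Prdm14. They were taken by symbol, with earlier results of these data known, as 10 of the 37310 genes in the deposited table. All 10 were found, Tfcp2l1 under its older symbol Tcfcp2l1. The data are mRNA-seq of JM8 mESCs, a feeder-free line of the C57BL6/N strain, with 2 wild-type libraries and 2 that carry the label Bmal1-/-. The 4 cultures grew in 2i + LIF, that is N2B27 medium with 1 µM PD0325901, which inhibits Mek, 3 µM CHIR99021, which inhibits Gsk3, and the cytokine LIF. Bmal1 encodes a transcription factor of the circadian clock, and the comparison asks how the transcriptome of undifferentiated cells differs when it is mutated. The Bmal1-/- cells are 1 clonal line with CRISPR/Cas9 indels in exon 5 of both alleles, set against the parental JM8 line, so that a difference between the lines other than Bmal1 cannot be told apart from the mutation.

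Naive pluripotency is the state of the preimplantation epiblast. Pou5f1 and Sox2 bind DNA together and, with Nanog, sit at the centre of a network whose members activate one another. In 2i + LIF the other factors receive the signals: LIF acts through Stat3 on Klf4 and Tfcp2l1, blocking Gsk3 relieves the repression of Esrrb, Nanog, Klf2 and Tfcp2l1 by Tcf7l1, and blocking Mek protects Klf2 and raises Nanog. Prdm14 represses Fgf receptor signalling and DNA methylation genes, and Tbx3 works in parallel with Nanog and Klf4.

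Short stretches of the promoters are given because they hold letters that the factors themselves or Bmal1 are known to bind. RefSeq windows from 250 bases before to 50 after the annotated start (build GRCm38.p6) were at hand for 8 of the 10 genes, with 11 start sites, and not for Tbx3 and Prdm14. The octamer core TTTGCAT, bound by Pou5f1, was read on both strands and is in capitals below, with the Sox core ACAATG in capitals where it lies beside it.
Nanog, chr6:122707403-122707432, plus strand: ttacagcttctTTTGCATtACAATGtccat
Sox2, chr3:34649885-34649914, plus strand: cgccccctttcATGCAAAaccctctggcga
Zfp42, chr8:43307176-43307205, minus strand: ctgaagaggcaTTTGCATaactgagcaaga
In Nanog the octamer lies 75 or 151 bases before the start, depending on which of 2 annotated starts is taken, and a Sox core follows it after 1 base. In Sox2 the octamer is on the opposite strand, 99 bases before the start, and in Zfp42 it is 185 bases before the start. Of the 11 windows 4 held the octamer core, against 4.63% of all 32851 windows in the table, and 4 held ACAATG (Nanog at both starts, Esrrb and Pou5f1), against 12.6%. The 2 Nanog windows overlap and hold the same octamer and Sox core, so each site is counted in both. Counted by gene, 3 of the 8 genes held the octamer core and 3 held ACAATG. The Klf core GGGTGTG was in the windows of Esrrb and Zfp42 (7.95% of all windows), and the Esrrb core AAGGTCA in none of the 11 (4.72%).

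Bmal1 with its partner Clock binds the E-box CACGTG, which reads the same on both strands. It was found in 1 of the 11 windows, that of Klf4, 182 bases before the start, while 7.15% of all windows held it. The E-box is in capitals.
Klf4, chr4:55532640-55532669, minus strand: cgcccccgccccCACGTGcgcggagtttgt
A match is a run of letters in this window and says nothing of binding.

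The study also designed primers to measure some of the factors by RT-qPCR, and those of Nanog, Pou5f1 and Zfp42 are shown because they mark which transcripts such an assay reads, whereas the table sums all transcripts of a gene. They are written in lower case as designed.
Nanog: gcatcttctgcttcctggcaa and gaactattcttgcttacaaggg
Pou5f1: gagaaggtggaaccaactcccg and cccaaggtgatcctcttctgctt
Zfp42: gagctgaactcctagccgcctagatt and tttggtcagtggtatttggggaca
On the NCBIM37 (mm9) annotation the Nanog pair lies in coding exons and spans 200 bases in all 4 transcripts. The Pou5f1 pair spans 104 bases and is found whole in 1 transcript. Only protein-coding transcripts were searched, whereas the 7 annotated for Pou5f1 are of any kind. The Zfp42 pair spans 288 bases of untranslated exons of its 1 transcript. The reverse primers of Pou5f1 and Zfp42 each match 2 places in the genome, 1 of them without annotation (on chr3 and chr15).

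Each value below is a normalized read count, namely the reads of a gene after division by 1 factor per library (trimmed mean of M values, TMM, set by the authors). The libraries held between 21504265 and 23329034 reads on genes, so that 3 reads correspond to a value of 2.82 to 3.19, and counting error is small for all 10 factors. Replicates correlated at 0.995 and 0.996 across genes, which are not independent of each other. The replicates of a label are described as biological, and all come from 1 line per label. The p-values therefore measure the spread between libraries of these lines. In limma, the main test below, the spread of a gene is moderated by that of other genes (18.12 prior degrees of freedom). The SE and interval of each factor thus rest largely on genes of similar level. Bmal1, listed as Arntl (ENSMUSG00000055116), had values of 678 and 733 in wild-type libraries against 556 and 590 in those labelled Bmal1-/- (log2 fold change −0.30, standard error (SE) 0.07, adjusted p = 0.0011 in limma). Reads over a whole gene do not check a short indel, and the libraries are therefore named by their labels; "mutant" below means labelled Bmal1-/-.

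All 10 factors were abundant in all 4 libraries, as the plot of levels by library shows. To compare genes, the normalized value was divided by the length of all annotated exons in kb. On this scale wild-type cells held 12819 ± 153 of Pou5f1, the POU factor that defines pluripotent cells, and 10001 ± 27.1 of Nanog, a homeodomain factor (values per kb, mean ± SD, n = 2). Averaged over the 4 libraries, the levels of these 2 genes exceeded those of 99.5% and 99.4% of the genes tested. A middle group followed: Klf2 with 3351 ± 5.11, Tfcp2l1 with 2858 ± 212, Esrrb with 2689 ± 39.2, Sox2 with 2412 ± 83.6 and Zfp42 with 2353 ± 79.1 per kb. Tfcp2l1 and Esrrb overlapped between libraries, as did Sox2 and Zfp42. Klf4 (1291 ± 23.5), Prdm14 (566 ± 6.89) and Tbx3 (505 ± 16.1) were lowest. Averaged over the 4 libraries, Tbx3 still exceeded 82.0% of the genes tested. Taking the longest transcript as the length instead, the wild-type levels of Pou5f1 and Esrrb were 21470 and 3781 per kb, which puts Esrrb above Klf2 and Tfcp2l1.

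**Figure D1:**
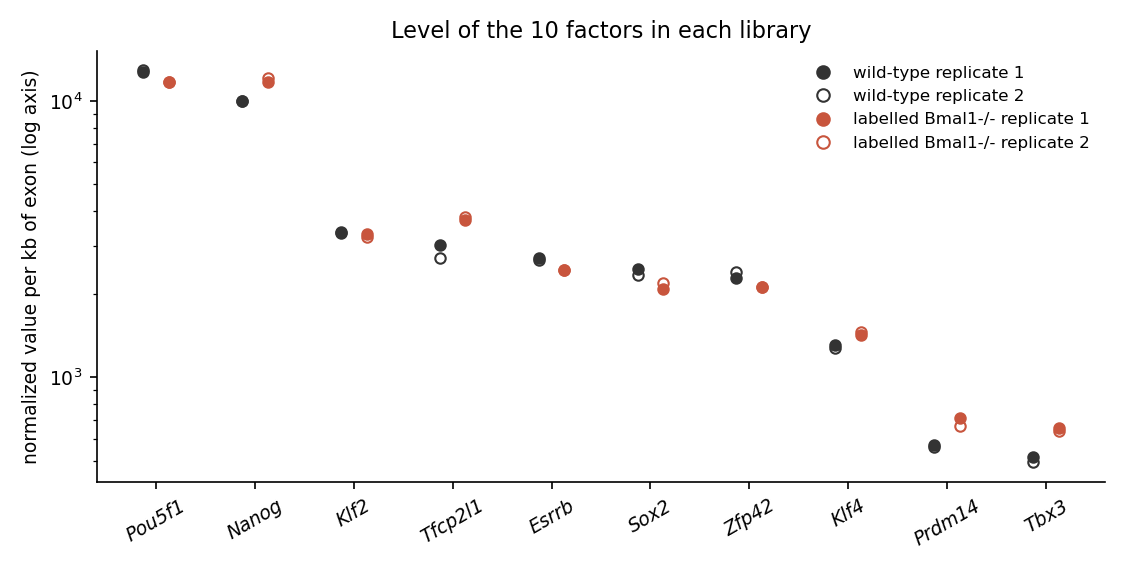
Normalized value per kb of exon (log axis) of each factor in the 4 libraries, ordered by the wild-type mean. Filled and open circles are replicates 1 and 2, dark for wild-type and red for the libraries labelled Bmal1-/-. With the length of all annotated exons, Pou5f1 led in wild-type with 12819 per kb. In the libraries labelled Bmal1-/- the points of Nanog (11918 per kb on average) and Pou5f1 (11744 per kb) overlapped on this length.

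Per kb of all annotated exons, the order changed at 2 places in the libraries labelled Bmal1-/-. Nanog reached 11918 ± 257 per kb, level with Pou5f1 at 11744 ± 6.74, and the ranges of these neighbours overlapped. That closeness depends on the length: per kb of the longest transcript, wild-type levels were 10141 for Nanog and 21470 for Pou5f1. Mutant levels were not computed with that length. Tfcp2l1 reached 3757 ± 67.8 per kb and stood above Klf2 at 3260 ± 64.7, without overlap. The order below them was as in wild-type: Esrrb (2447 ± 10.2), Sox2 (2146 ± 82.7) and Zfp42 (2128 ± 6.44), which overlapped each other, then Klf4 (1441 ± 25.1), Prdm14 (691 ± 29.99) and Tbx3 (649 ± 10.8).

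Between the labels the 10 factors split. Nanog, Klf4, Tfcp2l1, Tbx3 and Prdm14 were higher in the libraries labelled Bmal1-/-, Pou5f1, Sox2, Zfp42 and Esrrb were lower, and Klf2 was not called. None of the 10 differed by more than 2-fold, as 7.21% of all genes tested and 1.17% of those with a mean of at least 1000 did with an adjusted p-value under 0.05. A gene was called at an adjusted p-value under 0.05 in limma on log2(value + 1), with Benjamini-Hochberg adjustment over the 14510 genes whose mean over the libraries reached 10, a filter that all 10 factors passed by far. So called, 9 of the 10 factors differed, against 52.6% of all genes tested, 24% being higher and 28.6% lower. That split, 3488 genes higher and 4151 lower, was 4200 and 3194 with equal library totals. Abundant genes are called more often: among the 4770 genes with a mean of at least 1000, all 10 factors included, 67.1% were called, 23.2% as higher and 43.9% as lower. The higher share of the factors, 5 of 10, stands against 23.2%, and the lower share, 4 of 10, is close to the 43.9% of these abundant genes. The groups did not overlap for any of the 10 factors, as for 76% of all genes tested and 85% of the abundant ones. With Klf2, 5 factors had both mutant libraries below wild-type (41.4% of all and 54.9% of abundant genes), and 5 had both above (34.6% and 30.1%). On the whole reads, edgeR also called 5 factors higher and 4 lower (52.9% of genes called in either direction), and DESeq2 called 5 higher and 3 lower (36% called). The median log2 fold change was 0.06 over the factors, −0.03 over all genes tested and −0.08 over the abundant genes. Fewer cells that make an mRNA and less mRNA per cell cannot be told apart in these bulk libraries.

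**Figure D2:**
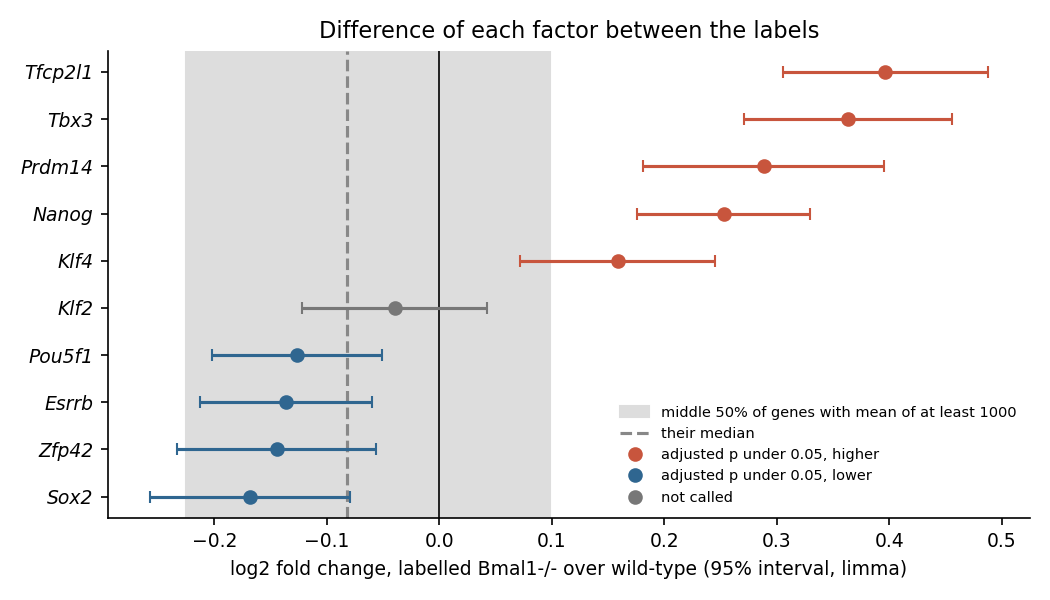
Log2 fold change of each factor, libraries labelled Bmal1-/- over wild-type, with the 95% interval from limma (n = 2 libraries each). The grey band holds the middle 50% of the 4770 genes with a mean of at least 1000, from −0.23 to 0.10, and the dashed line is their median of −0.08. The 4 factors called lower lie inside the band and the points of the 5 called higher lie to its right.

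Nanog stabilizes self-renewal and varies between pluripotent cells. Its normalized values were 22379 and 22465 in wild-type libraries against 26312 and 27127 in those labelled Bmal1-/-. The replicates lay close together and both mutant libraries were above both wild-type ones, 1.19-fold on average. On the log2 scale this is a difference of 0.25 (SE 0.04, 95% interval 0.18 to 0.33, adjusted p = 8.5e-06 in limma). Nanog (ENSMUSG00000012396) lies on the plus strand at chr6:122657507-122664651 in NCBIM37 and shares no exon bases with another gene. Among the abundant genes its fold change was at percentile 87.1.

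Tfcp2l1, a Grainyhead-like factor that Stat3 and the Wnt signal both raise, differed most of the 10. It had values of 27883 and 25102 in wild-type libraries against 34380 and 35269 in those labelled Bmal1-/-. The wild-type replicates were further apart than those of the other 9 factors, but both were well below the mutant ones. On the log2 scale this is a difference of 0.40 (SE 0.04, 95% interval 0.31 to 0.49, adjusted p = 2.4e-07), or 1.32-fold, percentile 93.5 of the abundant genes. Tfcp2l1 (ENSMUSG00000026380, chr1:120524522-120581744) shares 130 of its exon bases with a small nuclear RNA annotated on the same strand.

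Tbx3, a T-box factor, is the least abundant of the 10 per length and was raised almost as much. It had values of 2771 and 2648 in wild-type libraries against 3526 and 3443 in those labelled Bmal1-/-, which is a log2 fold change of 0.36 (SE 0.04, 95% interval 0.27 to 0.46, adjusted p = 9.5e-07). The groups were apart by several times the gap between replicates. Tbx3 (ENSMUSG00000018604, chr5:120120678-120134733) shares 115 exon bases with an antisense gene, Gm2301, and whether the authors counted by strand is not given in the sources used here.

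Prdm14, which represses Fgf signalling and the de novo DNA methyltransferases, had values of 1463 and 1438 in wild-type libraries against 1827 and 1718 in those labelled Bmal1-/-. On the log2 scale this is a difference of 0.29 (SE 0.05, 95% interval 0.18 to 0.40, adjusted p = 8.4e-05). Klf4, the zinc-finger factor that LIF raises through Stat3, had values of 4002 and 3901 in wild-type libraries against 4356 and 4465 in those labelled Bmal1-/-. It was the smallest of the 5 increases, with a log2 fold change of 0.16 (SE 0.04, 95% interval 0.07 to 0.25, adjusted p = 0.0031). Without Bmal1-/- replicate 2 the adjusted p-value of Klf4 was 0.052. Prdm14 (ENSMUSG00000042414) lies at chr1:13103538-13117244 and Klf4 (ENSMUSG00000003032) at chr4:55540013-55545347, both on the minus strand in NCBIM37.

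Klf2, the Krüppel-like factor that Mek activity destabilizes and that 2i therefore spares, had the difference nearest 0 of the 10. It had values of 6182 and 6195 in wild-type libraries against 6106 and 5937 in those labelled Bmal1-/-. On the log2 scale this is a difference of −0.04 (SE 0.04, adjusted p = 0.42), and its 95% interval, −0.12 to 0.04, leaves room for a small change in either direction. The mutant replicates were further apart than the nearest values of the groups. Klf2 (ENSMUSG00000055148) is at chr8:74842932-74845555, plus strand, in NCBIM37.

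The 4 factors called lower differed by similar, small amounts. Pou5f1 had values of 28677 and 29164 in wild-type libraries against 26483 and 26504 in those labelled Bmal1-/- (log2 fold change −0.13, SE 0.04, adjusted p = 0.0062). Esrrb, an orphan nuclear receptor that replaces Nanog in part, had 16427 and 16091 against 14750 and 14838 (−0.14, SE 0.04, adjusted p = 0.0039). In both genes the replicates were tight and every mutant value was below every wild-type value.

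Sox2, the HMG-box partner of Pou5f1, had values of 6071 and 5781 in wild-type libraries against 5129 and 5416 in those labelled Bmal1-/- (log2 fold change −0.17, SE 0.04, adjusted p = 0.0024). Zfp42, a zinc-finger protein and common marker of naive cells, had 4135 and 4336 against 3838 and 3822 (−0.14, SE 0.04, adjusted p = 0.0070). Without Bmal1-/- replicate 1 the adjusted p-value of Sox2 was 0.065. That of Zfp42 was 0.050 when wild-type replicate 2 was left out and 0.055 when Bmal1-/- replicate 2 was. In NCBIM37 Pou5f1 (ENSMUSG00000024406) is at chr17:35642982-35647721, Esrrb (ENSMUSG00000021255) at chr12:87702067-87862578 and Zfp42 (ENSMUSG00000051176) at chr8:44380422-44392363. Sox2 (ENSMUSG00000074637), a gene of 1 exon at chr3:34548927-34551383, lies inside the long noncoding gene Sox2ot but shares no exon bases with it.

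The fold changes of these 4 factors, from −0.17 to −0.13, lay between percentiles 34.4 and 42.3 of the abundant genes. Whether they are called lower turned on how the libraries were scaled. With the scaling of the authors 4 factors were called lower, while with equal library totals or with quantile normalization 1 was, Sox2. With equal totals Pou5f1 had a log2 fold change of −0.07 (adjusted p = 0.14), Zfp42 −0.08 and Esrrb −0.08. With quantile normalization they had −0.03 (adjusted p = 0.37), −0.09 and −0.06. Klf2 turned to a positive value of 0.02 and 0.01 under these scalings, and was called under neither. The 5 increases were called under both of these scalings, Nanog with log2 fold changes between 0.25 and 0.38 over all settings that used the 4 libraries.

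**Figure D3:**
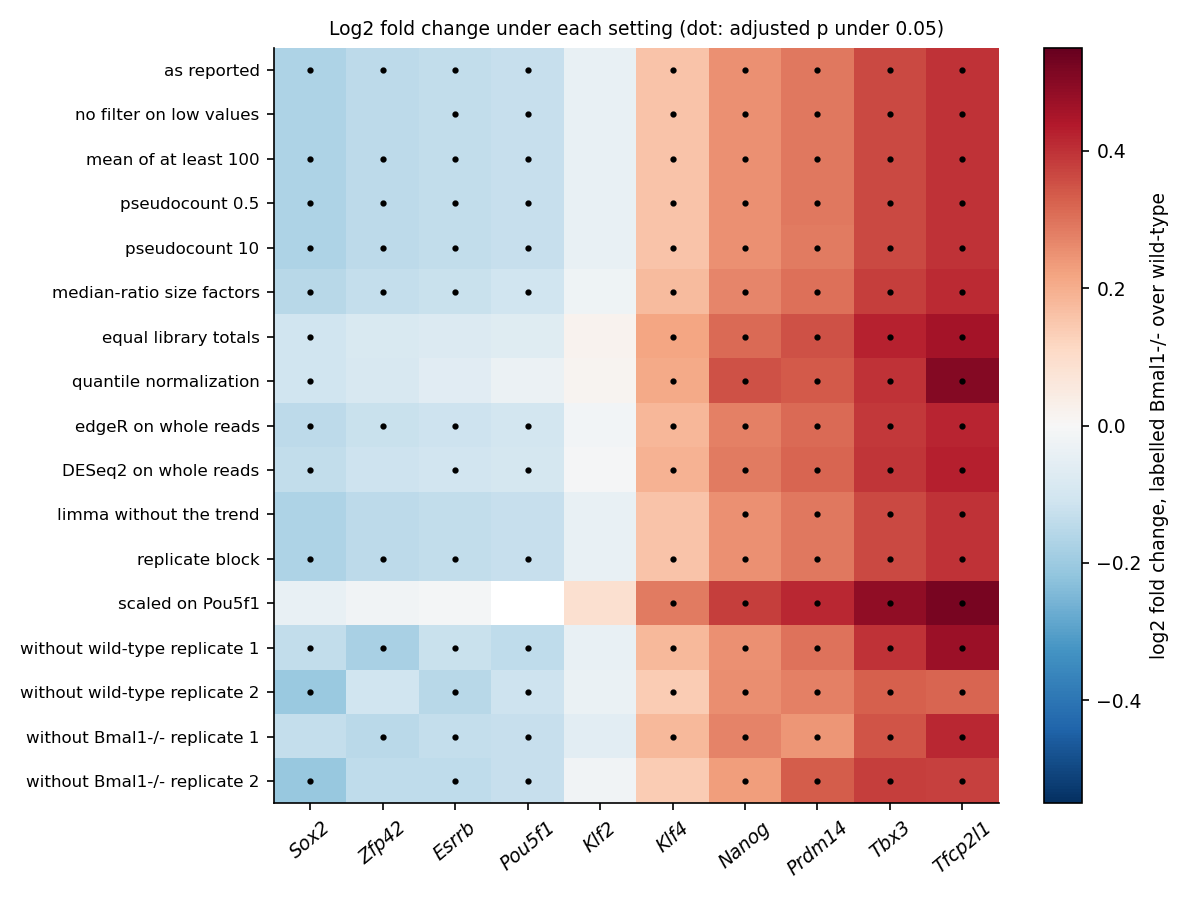
Log2 fold change of each factor (columns) under each processing setting (rows), with red for higher and blue for lower in the libraries labelled Bmal1-/- and a dot where the adjusted p-value was under 0.05. Nanog, Prdm14, Tbx3 and Tfcp2l1 carry a dot in every row, whereas the number of factors called lower ranges from 0 to 4.

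A ratio of 2 factors in the same library does not depend on any factor that scales whole libraries. Nanog stood at 0.780 and 0.770 of Pou5f1 in wild-type libraries against 0.994 and 1.02 in those labelled Bmal1-/-. Tfcp2l1 went from 0.972 and 0.861 of Pou5f1 to 1.30 and 1.33. Both mutant libraries were above both wild-type ones in each ratio. Pou5f1 was itself called lower with the scaling of the authors, so an unchanged gene rises relative to it. The share of all genes without overlap in this ratio was not computed. Tbx3, Prdm14 and Klf4 were also higher relative to Pou5f1, with 0.0966 and 0.0908 against 0.133 and 0.130 for Tbx3, 0.0510 and 0.0493 against 0.0690 and 0.0648 for Prdm14, and 0.140 and 0.134 against 0.164 and 0.168 for Klf4.

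The other factors kept their proportion to Pou5f1 more closely. Esrrb stood at 0.573 and 0.552 of Pou5f1 in wild-type libraries against 0.557 and 0.560 in those labelled Bmal1-/-. Sox2 stood at 0.212 and 0.198 against 0.194 and 0.204, and Zfp42 at 0.144 and 0.149 against 0.145 and 0.144. For these 3 genes the ranges of the groups overlapped. Klf2 stood at 0.216 and 0.212 against 0.231 and 0.224, without overlap. Relative to Nanog the picture differed. Tfcp2l1 (log2 difference 0.14) and Tbx3 (0.11) were still higher without overlap. Prdm14 overlapped (0.04), and Klf4 was lower without overlap (−0.09). Pou5f1, Sox2, Zfp42, Esrrb and Klf2 were also lower relative to Nanog.

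With all values scaled on Pou5f1, a setting chosen after seeing the data that moves the median of all genes from −0.03 to 0.10, limma gave Nanog a log2 fold change of 0.38 (95% interval 0.30 to 0.46, adjusted p = 6.9e-08). Tfcp2l1 had 0.52, Tbx3 0.49, Prdm14 0.41 and Klf4 0.28 relative to Pou5f1, each with an adjusted p-value of 1.8e-05 or less. Sox2 had −0.04 (−0.14 to 0.05, adjusted p = 0.47), Zfp42 −0.02 (−0.11 to 0.07, adjusted p = 0.76) and Esrrb −0.01 (−0.09 to 0.07, adjusted p = 0.86). Klf2 had 0.09 (adjusted p = 0.096). The intervals of Sox2, Zfp42 and Esrrb leave differences from Pou5f1 of up to 0.14 on the log2 scale possible, which is below the values of the 5 factors that were higher.

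**Figure D4:**
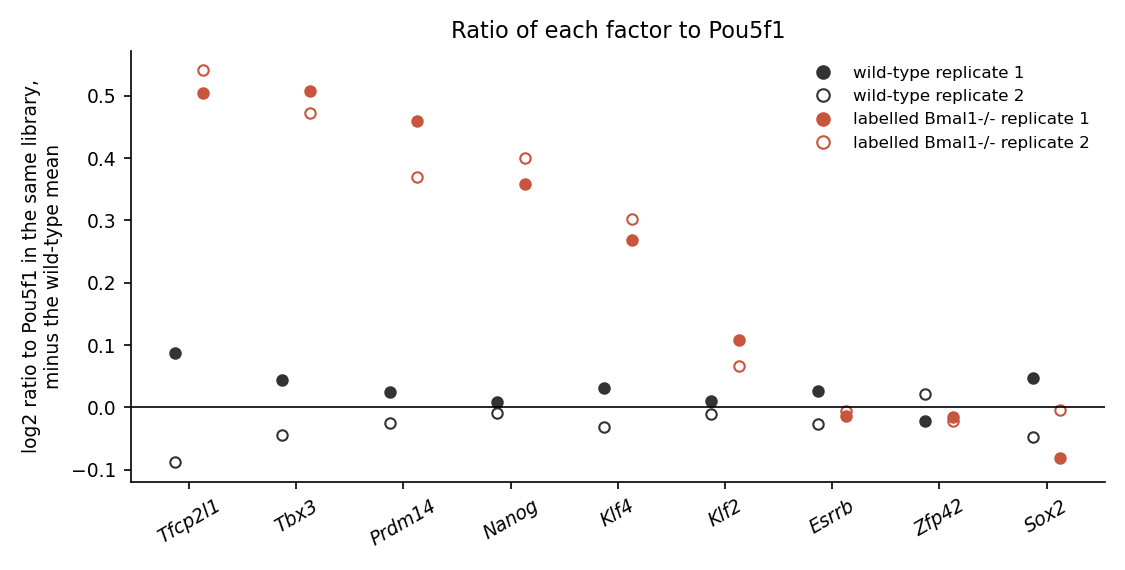
Log2 ratio of each factor to Pou5f1 in the same library, minus its wild-type mean, for the 4 libraries (filled circles replicate 1, open circles replicate 2, dark wild-type, red labelled Bmal1-/-). Tfcp2l1, Tbx3, Prdm14, Nanog and Klf4 lie above 0 in both mutant libraries, by 0.28 to 0.52 on average, and Esrrb, Zfp42 and Sox2 overlap with wild-type.

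Summed over the 10 factors, the normalized values were 119990 and 117121 in wild-type libraries against 126707 and 128539 in those labelled Bmal1-/-. The 5 higher factors together went from 58498 and 55554 to 70400 and 72022, while the 4 lower ones went from 55310 and 55372 to 50201 and 50580. Tfcp2l1 and Nanog carry most of the first sum, and Pou5f1 and Esrrb most of the second. These sums follow from the calls and were not tested.

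Genes around the factors were examined in lists by role. The counts stand beside 24% higher and 28.6% lower over all genes tested, and 23.2% and 43.9% over the abundant genes. All 16 other transcription factors of the naive network were tested: 5 were higher, 8 lower and 3 not called, with a median log2 fold change of −0.17. The median was −0.10 when wild-type replicate 1 was left out and −0.08 when Bmal1-/- replicate 1 was. Rarg, a retinoic acid receptor, rose from 2148 and 2116 to 3325 and 3132 (0.60, adjusted p = 1.3e-09). Nr0b1 (Dax1), a partner of Pou5f1 and Nanog in the network, rose by 0.29 on the log2 scale. Mycn, a Myc factor, fell from 1695 and 1613 to 901 and 945 (−0.84, adjusted p = 1.0e-10), and Sox15, a relative of Sox2, fell by 0.66.

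Of 20 cofactors that bind the factors or act with them, 8 were higher, 4 lower and 8 not called (median 0.03). Rif1, a protein of telomeres and replication timing that is abundant in mESCs, rose from 10293 and 10015 to 15378 and 15729 (a log2 change of 0.62, adjusted p = 3.3e-11), and the cohesin loader Nipbl by 0.44. Mta1, a subunit of the NuRD repressor complex, had −0.42 and Arid3b −0.29. Of 14 genes that promote exit from naive pluripotency, 7 were higher, 1 was lower and 6 were not called (median 0.09, or 0.05 without wild-type replicate 2). Apc, part of the complex that destroys beta-catenin, rose by 0.62 and the Notch effector Rbpj by 0.57, while the NuRD subunit Mbd3 had −0.38. Tcf7l1, the repressor that Gsk3 inhibition counters, was not called, with −0.03 (adjusted p = 0.62). Tcf7l1 was singled out for its role after its value was seen.

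Targets of the factors went both ways. Of the 20 tested, 8 were higher and 10 lower (median −0.05, but 0.01 with equal library totals and 0.03 with quantile normalization). Fbxo15, a gene activated by Pou5f1 and Sox2, rose from 6196 and 6547 to 11266 and 11564 (a log2 change of 0.84, adjusted p = 6.3e-13), and Dnmt3l, a cofactor of DNA methyltransferases, by 0.82. Utf1, also activated by Pou5f1 and Sox2, fell from 1314 and 1304 to 731 and 685 (−0.89, adjusted p = 1.2e-10), and the Nodal antagonist Lefty1 had −0.73. Fbxo15 and Utf1 were named as the highest and lowest called genes of the list, so their opposite directions follow from that choice. The part of the factors in the differences of their targets was not tested.

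Of 12 tested outputs of the signals that feed the factors, 9 were lower and 2 higher, where 28.6% of all genes and 43.9% of abundant genes were lower. Their median was −0.32, against −0.03 over all genes tested. Lef1, a Wnt target, fell from 191 and 131 to 70.5 and 64.8 (a log2 change of −1.21, adjusted p = 4.6e-06), and Dusp6, the phosphatase that Erk induces, from 109 and 85.0 to 55.4 and 50.5 (−0.85). Spry2, another gene that Erk induces, rose by 0.39 and Cdx1, a Wnt target, by 0.25. The list mixes outputs of LIF, Wnt and Erk, and Spry2 and Cdx1 were the only 2 called higher. Besides Lef1 and Dusp6, those called lower were Spry4 (−0.83), Myc (−0.73), Sp5 (−0.59), Socs3 (−0.35), Axin2 (−0.29), Etv4 (−0.20) and Tcf7 (−0.15). Etv5 was not called.

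Genes of primed pluripotency, the state after implantation, gave 3 higher and 7 lower of 13 tested (median −0.20). Cd24a fell from 1982 and 1946 to 1202 and 1182 (−0.72, adjusted p = 2.6e-10), and Fgfr2 had −0.78. Grhl2 rose from 56.9 and 45.7 to 112 and 114 (1.13), and Sox3 from 18.96 and 23.4 to 59.2 and 49.6 (1.32). The defining genes Otx2 and Fgf5 were below the filter, with at most 19.1 and 8.50 in any library. Otx2 had 10.5 and 19.1 in wild-type libraries against 4.70 and 2.86 in those labelled Bmal1-/-.

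**Figure D5:**
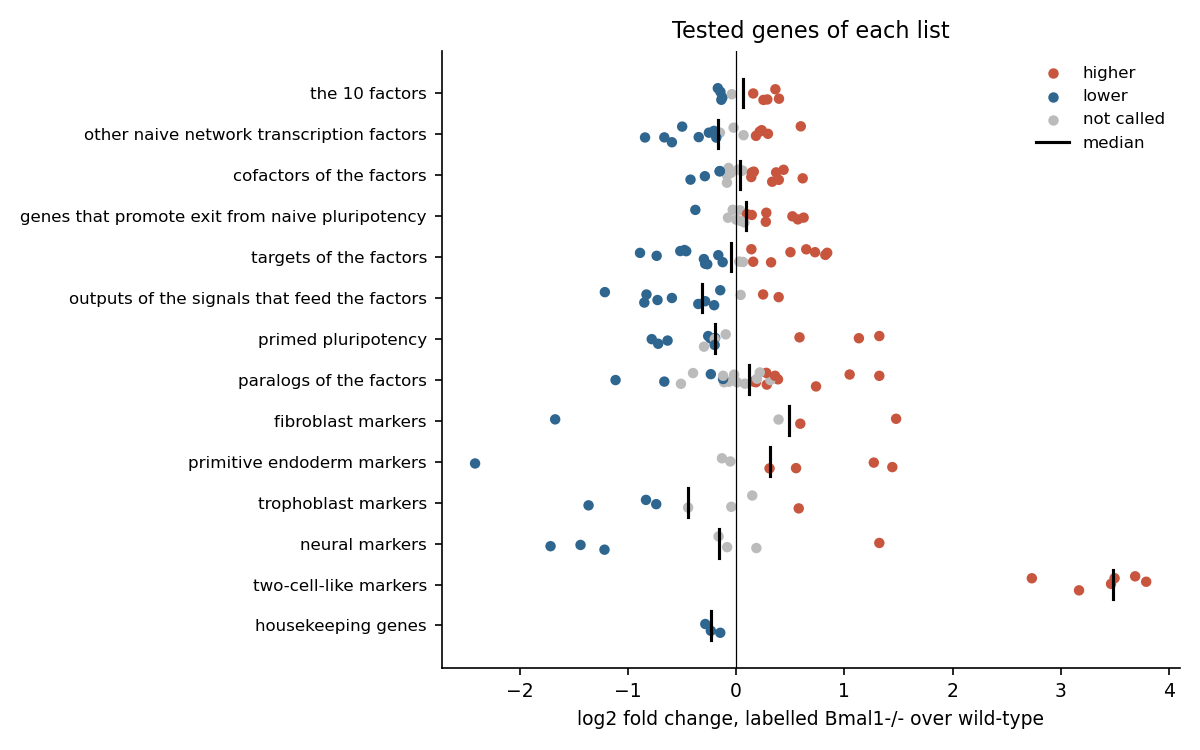
Log2 fold change, libraries labelled Bmal1-/- over wild-type, of each tested gene (point) by list, with the median as a black line, red for genes called higher, blue for lower and grey for not called. The 10 factors lie within −0.17 to 0.40, a narrower range than the targets (−0.89 to 0.84). The two-cell-like markers stand apart between 2.73 and 3.79. The lowest of these, Tdpoz1, passed the filter through its values in the libraries labelled Bmal1-/-.

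Markers of other cells were read beside the factors. The two-cell-like state is an early-embryo-like state that a few mESCs enter. Of its 10 markers 6 were tested and all 6 were higher (median log2 fold change 3.48). Tdpoz1, 1 of the 6, had a wild-type mean of 8.47, under the filter value of 10, so it passed through its mutant values. Zscan4c rose from 43.2 and 60.5 to 730 and 709, and Zscan4f from 24.2 and 40.4 to 429 and 401. Zscan4 genes are near-identical copies and how the authors assigned reads among them is not given in the sources used here, so single members are uncertain. The summed value of the 8 matched markers, not corrected for length, was 195 and 238 in wild-type libraries against 2502 and 2419 in those labelled Bmal1-/-. Their part in the differences of the factors was not tested.

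Of 10 primitive endoderm markers 7 were tested, with 4 higher, 1 lower and a median of 0.31. Col4a1 had a log2 fold change of 1.44. Sox17 rose from 10.5 and 14.9 to 32.9 and 30.5 (1.27), and Sox7 fell from 46.4 and 52.1 to 5.64 and 12.4 (−2.41). The mutant mean of Sox7, 9.02, was under the filter value of 10, so it passed through its wild-type values. The list summed to between 12463 and 12848 in all libraries, most of it Sparc. Gata6, a defining marker, had at most 6.37. Gata4 of the same list rose from 69.5 and 85.0 to 120 and 107 (0.55, adjusted p = 0.0061 in limma). Of 10 trophoblast markers 7 were tested, with 1 higher (Ascl2, 0.58) and 3 lower, among them Tfap2c (−1.36) and Eomes (−0.83). The list summed to 2099 and 2106 in wild-type libraries against 1144 and 1107 in those labelled Bmal1-/-. Within that sum Tfap2c alone went from 1429 and 1444 to 576 and 541. Krt7, Krt8 and Krt18 were not called. The median of the list was −0.44. This median was −0.12 without Bmal1-/- replicate 1, −0.70 without Bmal1-/- replicate 2, −0.77 with quantile normalization and −0.83 with a mean of at least 100. Of 10 neural markers 7 were tested, with 1 higher (Sox3), 3 lower and a median of −0.16. Among those lower, Map2 had −1.44 and Pax6 fell from 45.3 and 24.4 to 9.39 and 9.54 (−1.71). The mutant mean of Pax6, 9.46, was also under the filter value. The neural list summed to 4450 and 4203 in wild-type libraries against 2690 and 2498 in those labelled Bmal1-/-. Within that sum Tubb3, also called lower, alone went from 2785 and 2512 to 1192 and 1088. The neural median was −0.27 without Bmal1-/- replicate 1, −0.06 without Bmal1-/- replicate 2 and −0.69 with a mean of at least 100. Fabp7 was at 0 in all libraries.

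Of 10 fibroblast markers 4 were tested. Pdgfrb (1.48) and Thy1 (0.59) were higher, Vim (−1.67) was lower, and the median was 0.49, but 0.25 with quantile normalization and −0.10 with a mean of at least 100. Vim made up most of the sum, which was 3771 and 3615 in wild-type libraries against 1429 and 1438 in those labelled Bmal1-/-. Col3a1 and Postn had at most 1 read in any library, and Lum and Dcn were at 0. The part of primitive endoderm, trophoblast, neural or fibroblast markers in the differences of the factors was not tested.

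Housekeeping genes were read last. Gapdh (−0.28), Actb (−0.23) and Ywhaz (−0.15, adjusted p = 0.0051) were called lower, with a median log2 fold change of −0.23. The values of Ywhaz were 7313 and 7231 in wild-type libraries against 6372 and 6778 in those labelled Bmal1-/-. The median of these 3 genes stayed below 0 in every setting tried, between −0.27 and −0.04. Sox2, at −0.17, lay within the range of the 3 genes, Pou5f1, Zfp42 and Esrrb lay just above it at −0.14 to −0.13, and Nanog, Klf4, Tfcp2l1, Tbx3 and Prdm14 lay well above it.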

How the data were processed

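mRNA-seq libraries of 2 wild-type and 2 Bmal1-/- cultures were analysed from the 1 deposited table. The authors trimmed reads with cutadapt 1.9.1 and aligned them with STAR 2.5.2b to mm9, per the labels. The counting tool and its strand setting are not given in the sources used here. The deposited values are a normalized signal, TMM-scaled read counts per gene. All values were whole multiples of 1 step per library (tolerance 0.01 of a read), so the whole reads were recovered. Reads on genes numbered 21737170 and 21504265 (wild-type) and 23329034 and 23021702 (Bmal1-/-).

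Genes with a mean of at least 10 (14510 of 37310) were tested with limma 3.58.1 in R 4.3.3, with an intensity trend, on log2(value + 1), 2 libraries against 2 without covariate, with Benjamini-Hochberg adjustment. The pseudocount makes changes of low genes look smaller than they are. Alternatives used edgeR 4.0.16 (quasi-likelihood test, 52.9% of genes called) and DESeq2 1.42.0 (36%) on the whole reads, other filters, pseudocounts, scalings and lengths, a replicate block, and each library left out. The scripts were tested on simulated data. The 10 factors and the 13 other lists were chosen with earlier results of these data known. Of 186 list entries, 183 matched a gene. All factors were named, with Arntl and the housekeeping genes, and of each other list up to 2 genes with the highest and up to 2 with the lowest log2 fold change among those called. Genes named outside this rule (Tcf7l1, Sparc, Gata4, Gata6, Tdpoz1, Tubb3, the remaining signal outputs and genes below the filter) were chosen after their values were seen. Promoter windows came from RefSeq (GRCm38.p6), and gene positions and primer matches from NCBIM37, the build of the files. The 2 builds were not mixed. A planned scaling and 1 list gene are not reported here.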

Additional observations from a re-analysis of the deposited data

How the results depend on the processing

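Nanog, Tfcp2l1, Tbx3 and Prdm14 kept their direction and an adjusted p-value under 0.05 in all 16 alternatives, with log2 fold changes of 0.23 to 0.38, 0.32 to 0.52, 0.33 to 0.49 and 0.24 to 0.41. Klf4 (0.14 to 0.28) missed the threshold in limma without the trend (adjusted p = 0.087) and without Bmal1-/- replicate 2. The number of factors called lower, 4 as reported, was 2 with no filter on low values (Sox2 and Zfp42 lost, adjusted p = 0.064 and 0.052), 1 with equal library totals, 1 with quantile normalization, and 0 in limma without the trend or scaled on Pou5f1, where 0 also had an unadjusted p-value under 0.05. It was 3 to 4 with 1 library left out. Scaled on Pou5f1, Pou5f1 itself was not tested and could not be called, and falls of similar size cancel in the other factors. In DESeq2 Zfp42 had an adjusted p-value of 0.084. Klf2 reversed to 0.021 with equal library totals, 0.013 with quantile normalization and 0.09 scaled on Pou5f1. The cause was not tested beyond the scaling itself.

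Over all genes, 3488 were called higher and 4151 lower, 835 and 211 of them by over 2-fold. The count lower was 2536 in DESeq2, 2515 without the trend, and 2153 scaled on Pou5f1. The count higher ranged from 2540 to 4984 over the settings. Over 2-fold, 237 were higher and 81 lower with a mean of at least 100, and 135 were lower with a pseudocount of 10 and 381 with quantile normalization. The scaling on Pou5f1 was chosen after seeing the data.

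The labels number the replicates as Exp 1 and Exp 2 in both groups, and do not say whether the libraries were paired. The deviations of replicate 1 from the 2 group means correlated at −0.020 across genes, so no strong shared shift was seen. With 1 deviation per group this cannot show that the libraries were unpaired. With the replicate block 5 factors were higher and 4 lower, and Nanog had 0.25; no factor changed its call. With a window from 100 bases before to 50 after the start, the E-box was in 0 of the 11 promoters and the octamer core in 2. With 2 libraries a label and 1 line each, precision is limited by their number, not by depth.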

Other observations

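Relatives of the factors by gene family were read as well, among them Klf5 and Sox15, which are also in the list of other naive network factors. Of 24 paralogs tested, 9 were higher, 4 lower and 11 not called, with a median log2 fold change of 0.12 (0.05 without wild-type replicate 2, 0.03 without Bmal1-/- replicate 2 and 0.07 with quantile normalization). Among 12 other Krüppel-like factors 4 were higher, 2 lower and 6 not called, and their log2 fold changes ranged from −0.40 to 0.74. The highest was Klf9, which rose from an average of 2102 to 3504, and Klf5, which acts beside Klf2 and Klf4 in mESCs, rose by 0.18 on the log2 scale (adjusted p = 0.0029). Of the T-box relatives Tbx2 had the largest difference, from 11.6 and 15.9 to 26.3 and 32.4 (1.05, adjusted p = 0.0085). Prdm1, a relative of Prdm14 that represses somatic genes in germ cell precursors, fell from 306 and 329 to 132 and 161 (−1.11, adjusted p = 7.7e-08), opposite in direction to Prdm14. Both POU relatives that were tested were higher, with log2 fold changes of 0.28 and 0.39. Adjusted p-values are from limma, and Klf9 and Klf5 were named after their values were seen.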
